A study of Mus musculus with 4 samples.

Results

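CD8 T cells in G2 and mitosis were taken from virus-specific T cells of the spleen, measured one cell at a time on day 8 after infection with lymphocytic choriomeningitis virus (LCMV) Armstrong. A cell was selected on its raw unique molecular identifiers (UMIs, each standing for 1 captured transcript). It needed a sum of 5 or more UMIs over Birc5, Ccnb1, Ccnb2, Cenpa, Cdc20, Ube2c, Cenpf and Top2a, at least 1 UMI of Cd8a or Cd8b1, none of the B cell genes Cd79a and Ms4a1, and at most 1 of the macrophage genes Csf1r and C1qb. Of 24893 cells that passed the filters (500 genes or more, no more than 10% of UMIs from mitochondrial genes), 22669 were CD8 T cells by these lineage genes, and 1708 of them (7.53%) passed the 8-gene sum and are called G2/M cells here. The other 20961 are called other CD8 T cells, and 928 of those carried 5 or more UMIs over 12 genes of DNA replication and are called S-phase cells. The values of the 8 genes chose the G2/M cells, so their level is a description and not a finding.

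The animals were 2 mixed bone marrow chimeras, made from WT (CD45.1) and Bcl3-/- (CD45.2) marrow in irradiated Rag1-/- hosts, which make no T or B cells of their own, on a C57bl/6 background. Each chimera gave 1 WT and 1 Bcl3-/- library of sorted H-2Db-GP33 tetramer-positive CD8+ T cells, called WT1 and KO1 for chimera 1 and WT2 and KO2 for chimera 2, so that n = 2 libraries per genotype. Bcl3 was missing from all blood cells of the donor, and its deletion cannot be told apart from the CD45 allele that marked the donor. The libraries held 21193300 UMIs (WT1), 20358780 (WT2), 22922219 (KO1) and 22672343 (KO2), and G2/M cells numbered 441, 523, 322 and 422 in this order. Between 37 and 63 cell barcodes were shared by any pair of libraries, and 1 barcode was a G2/M cell in both WT2 and KO2.

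A cell that leaves S phase has copied its DNA and builds up cyclin B, which activates the kinase Cdk1 and drives it into mitosis. There, chromosomes are condensed, attached through kinetochores to the spindle, and pulled apart once the anaphase-promoting complex with Cdc20 and Ube2c marks cyclin B and securin for destruction. Most of the genes involved are repressed in resting cells by the DREAM complex and switched on late in the cycle by B-Myb and Foxm1, through promoter elements called CHR and CCAAT box. Antiviral CD8 T cells divide rapidly in the first week of infection, and then slow down as the virus is cleared.

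The promoters of the genes that chose the cells are shown because the rule used their RNA and not their sequence. Sequences are from RefSeq (build GRCm38.p6), from 135 bases before the annotated start to 30 bases after it, in the direction of the gene. Capitals mark the CHR letters TTTGAA or TTCGAA and the CCAAT box, on either strand (TTCAAA and ATTGG on the other). The first letter of Top2a ends a match that starts before the stretch shown. Ccnb2 (cyclin B2) lies at chr9:70421525-70421689 on the minus strand, Cdc20 at chr4:118437314-118437478 on the minus strand, Cenpa (the histone H3 variant of centromeres) at chr5:30666751-30666915 on the plus strand, Top2a (the topoisomerase that untangles sister DNA) at chr11:99024160-99024324 on the minus strand, and Birc5 (survivin) at chr11:117849102-117849266 on the plus strand.
Ccnb2: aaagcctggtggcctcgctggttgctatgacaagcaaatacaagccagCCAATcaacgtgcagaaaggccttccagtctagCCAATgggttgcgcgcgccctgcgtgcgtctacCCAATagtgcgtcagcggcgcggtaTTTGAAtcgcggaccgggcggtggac
Cdc20: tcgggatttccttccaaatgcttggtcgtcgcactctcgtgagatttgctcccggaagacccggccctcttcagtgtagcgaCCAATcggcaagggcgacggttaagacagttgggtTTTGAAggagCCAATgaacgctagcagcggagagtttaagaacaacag
Cenpa: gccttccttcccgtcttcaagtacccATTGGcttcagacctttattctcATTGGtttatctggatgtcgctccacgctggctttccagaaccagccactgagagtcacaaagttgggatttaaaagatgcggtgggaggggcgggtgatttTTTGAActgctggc
Top2a: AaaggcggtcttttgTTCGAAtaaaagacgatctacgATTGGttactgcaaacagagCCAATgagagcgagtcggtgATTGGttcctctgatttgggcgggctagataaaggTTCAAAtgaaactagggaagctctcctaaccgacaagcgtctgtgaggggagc
Birc5: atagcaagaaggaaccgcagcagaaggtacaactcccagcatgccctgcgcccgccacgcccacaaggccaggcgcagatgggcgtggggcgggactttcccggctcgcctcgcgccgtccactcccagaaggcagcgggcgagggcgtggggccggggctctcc

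Ccnb2 carried 3 CCAAT boxes before its start and TTTGAA just after it. Cdc20 had its TTTGAA 18 bases before the start, and Birc5 held neither set of letters in the whole window. Over the 300 bases of each promoter in the RefSeq table (250 before and 50 after the start), 6 of the 8 genes had a CHR match no farther than 100 bases before the start together with at least 2 CCAAT matches. This held for 344 of 27025 genes with a promoter in the table (1.27%). A CHR match in that place was found in 14 of 22 genes on a list of mitotic kinases and cyclins (63.6%), in 16 of 27 spindle genes (59.3%) and in 12 of 21 kinetochore genes (57.1%), but in 2 of 27 genes of DNA replication (7.41%) and 9.87% of all genes. Letters of the E2F element (TTTCCCGC, TTTCGCGC, TTTGCCGC or TTTGGCGC, either strand) stood in 11 of the 27 replication promoters (40.7%). They stood in 1 of the 22 mitotic kinase and cyclin promoters (4.55%), 2 of the 27 spindle promoters (7.41%), 2 of the 21 kinetochore promoters (9.52%) and 2.6% of all. Matches are a description of letters, and no test was made.

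The rule fixes how far its own genes mark these cells, so the following counts describe the selection and do not check the label. All of the 8 genes were detected in 149 G2/M cells, the median cell had 5 of them, and 3 cells had a single one. The median 8-gene sum was 13 UMIs for WT1, 10 for WT2, 14 for KO1 and 13 for KO2. At the edge of the rule, 132 cells had a sum of 5, and 213 CD8 T cells with a sum of 4 lay just outside. A further 181 cells reached a sum of 5 but failed the lineage genes. A single UMI of Cd8a and Cd8b1 together, which the rule used, was held by 30 cells. The Cd3 genes, which the rule did not use, were present, since 1 G2/M cell had no UMI of Cd3d, Cd3e or Cd3g. The summed level of 9 listed T cell genes was lower in G2/M cells than in other CD8 T cells of each library. The list holds Cd8b1, which the lineage rule of both classes used. The sums were 5786 CPM (counts scaled to 1000000 UMIs of the cell class) against 7352 in WT1, 5657 against 7320 in WT2, 6176 against 7639 in KO1 and 6251 against 7926 in KO2.

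G2/M cells held more UMIs. The median cell of WT1 had 5533, of WT2 3344, of KO1 5619 and of KO2 4303.5, which was 1.59, 1.69, 1.58 and 1.49 times the median of other CD8 T cells. A deeper cell reaches 5 UMIs more easily, so part of this ratio is fixed by the rule, and shares are also given at equal depth. Some G2/M barcodes carried RNA of a second lineage, and no doublet caller was run. Counting barcodes with 10 or more UMIs of a B cell, plasma cell, myeloid, granulocyte or erythroid list, 75 G2/M cells (4.39%) were of mixed lineage, at 21, 19, 16 and 19 in WT1, WT2, KO1 and KO2. Among other CD8 T cells the share of such barcodes was 1.45%, 0.871%, 2.40% and 1.49%.

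The 2 foreign lineages that stood out were granulocytes and red cells. The 8 granulocyte genes summed to 543 CPM in WT1 G2/M cells, 2170 in WT2, 5066 in KO1 and 5195 in KO2, against 1344, 697, 1861 and 1938 CPM in other CD8 T cells, with S100a8 the most abundant. The 8 erythroid genes summed to 468, 766, 41.9 and 1654 CPM against 12.7, 14.5, 12.6 and 38.2 CPM, with Hbb-bs the most abundant. In WT2, KO1 and KO2 a few cells carried most of the granulocyte RNA, since 3 cells held 88.5%, 87.8% and 90.3% of the S100a8 UMIs. In WT1 S100a8 was spread thinly, with 536 UMIs in 286 of 441 G2/M cells and 7.46% of them in 3 cells. Elane, a protease of granulocyte precursors, was concentrated in each library, with 95.3% to 99.2% of its UMIs in 3 cells. A single cell of KO2 held 1105 of its 1131 Hbb-bs UMIs. Cd79a and Ms4a1 were at 0 by the rule, and the genes of the B cell, plasma cell and myeloid lists had median folds of 1.13, 0.768 and 0.925 over other CD8 T cells. The calls between genotypes were also made without these cells, and each named gene whose call was lost is given with that value below.

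The share of CD8 T cells in G2/M was compared between the genotypes first. It was 9.77% in WT1 (exact Clopper-Pearson 95% interval 8.92 to 10.7), 7.17% in WT2 (6.59 to 7.78), 6.61% in KO1 (5.93 to 7.35) and 7.05% in KO2 (6.41 to 7.72). WT1 stood above the other libraries, which lay close together, and intervals cover counting error only. WT libraries averaged 8.47% ± 1.84 (SD, n = 2) and Bcl3-/- libraries 6.83% ± 0.304 (SD, n = 2), and the Bcl3-/- minus WT difference was −1.64 points (2-sided exact permutation test over libraries, p = 0.33, the smallest that 2 against 2 allow). Within chimera 1 the difference was −3.15 points and within chimera 2 it was −0.12 points. Without WT1, it was −0.34 points. At a threshold of 8 UMIs the mean difference was −0.80 points, and chimera 2 turned to 0.58. As a share of all cells that passed the filters it was −1.44 points, with 0.035 in chimera 2.

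Depth differed between libraries, so the share was also computed with each cell thinned to 1000 UMIs and a sum of 2 or more. It was then 7.94% for WT1 and 7.63% for WT2, against 5.38% for KO1 and 6.44% for KO2. Both WT libraries lay above both Bcl3-/- libraries, with differences of −2.56 points in chimera 1 and −1.19 in chimera 2 (mean −1.88, exact p = 0.33). S-phase cells were also less frequent in both Bcl3-/- libraries. They made up 6.09% (WT1), 4.15% (WT2), 3.14% (KO1) and 3.29% (KO2) of CD8 T cells, and 7.78%, 8.01%, 4.97% and 6.65% at equal depth, a mean difference of −2.08 points (exact p = 0.33). With 2 libraries per genotype, neither share can pass a threshold of 0.05.

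**Figure D1:**
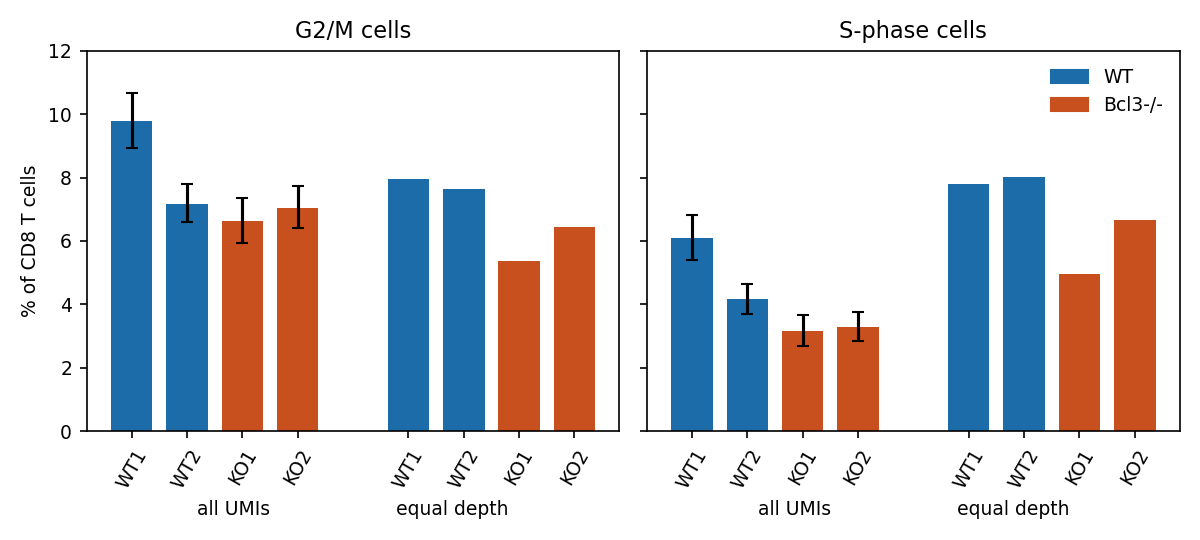
Share of CD8 T cells in G2/M (left) and in S phase (right), in percent, in each library from all UMIs and at 1000 UMIs per cell (equal depth). Error bars are exact 95% intervals and are drawn for the shares from all UMIs. At equal depth, the Bcl3-/- libraries (5.38% and 6.44% for G2/M) lie below the WT libraries (7.63% and 7.94%).

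The 8 genes that chose the cells are given as levels only. Cenpa had 551 CPM in WT1 G2/M cells, 603 in WT2, 608 in KO1 and 712 in KO2, against 39.8 to 48.4 CPM in other CD8 T cells. Birc5, a subunit of the chromosomal passenger complex, had 543, 625, 553 and 644 CPM. Ccnb2 had 468, 521, 481 and 531 CPM, and Ccnb1 (cyclin B1) had 121, 195, 116 and 157 CPM. Cdc20 had 235, 301, 249 and 299 CPM and Ube2c had 271, 261, 270 and 365 CPM. Top2a had 223, 374, 212 and 354 CPM, and Cenpf, a kinetochore protein, had 97.7, 158, 84.9 and 122 CPM. For 6 of the 8 (Birc5, Ccnb2, Ccnb1, Cdc20, Top2a and Cenpf) both libraries of chimera 2 were above both of chimera 1. The cells of chimera 2 were shallower, and a rule of 5 UMIs fixes part of a higher CPM in shallower cells. In 26 to 63 cells per library with B cell genes, taken as a background of free RNA, Cenpa reached 16.3 to 68.6 CPM and Top2a at most 8.82 CPM.

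Other genes of the division machinery were far higher in G2/M cells than in other CD8 T cells of the same library. Of 10887 genes with at least 1 CPM in either class, 438 were at least 2-fold higher in all 4 libraries (4.02%) and 22 were at 0.5 times the level or less in all 4 (0.202%). Any higher level in all 4 libraries was found for 29.3% of these genes, and any lower level for 24.8%. The rule used this contrast, so no test was made. Folds are ratios of CPM + 1, which understate the change of low genes, and the median over all these genes was 1.01.

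Hmmr, a spindle and hyaluronan-binding protein, led the genes outside the rule. It had 60.6 CPM in WT1 G2/M cells, 94.5 in WT2, 62.4 in KO1 and 71.2 in KO2, against 0.862 to 2.44 CPM in other CD8 T cells, folds of 27.5 to 34.1. Nusap1, which bundles spindle microtubules, followed with folds of 24.6 to 32.4. Ccna2 (cyclin A2) had 222, 250, 238 and 280 CPM, folds of 24.3 to 36.1. Tpx2, which activates the kinase Aurora A at the spindle, had folds of 21.8 to 31.6, and the mitotic kinase Plk1 had 21.5 to 27.3. The replication-linked histone gene Hist1h2ap spread most among libraries, with folds of 21.1 to 55.2, and it shares sequence with other histone genes. The next genes were Kif2c, Cep55, Kif20a, Cenpe, Nuf2, Shcbp1, Mxd3, Sgol1, Cdc25c, Ckap2l, Nek2, Bub1b and Cdca8, with folds between 13.8 and 34.1, and most of them act at the spindle, kinetochore or midbody. Car1, a red cell gene with folds of 16.7 to 32.6, was also among the first 20, and 3 cells held between 61.9% and 100% of its UMIs in each library.

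Grouped by role, 25 of 28 mitotic kinases, cyclins and their regulators were at least 2-fold higher in all 4 libraries, with a median fold of 12.1. Examples are Cdk1 (117, 140, 103 and 157 CPM), the proliferation antigen Mki67 (113, 148, 112 and 152 CPM) and the Cdk subunit Cks1b (463, 490, 474 and 502 CPM). Of the spindle genes, 30 of 31 were 2-fold higher in all 4 libraries (median 10.4), led in level by the tubulin gene Tubb5. Each of the 25 measured kinetochore and centromere genes was (median 9.31). Of condensin and cohesin genes 9 of 13 were (median 3.04), and of chromatin proteins 13 of 15 (median 2.96), among them Hmgb2 with 3102, 2959, 3352 and 4029 CPM. Genes of DNA replication were 2-fold higher in 25 of 33 cases, with a median of 3.27. The helicase gene Mcm6 was 1.51 to 1.79-fold higher, with 171, 221, 131 and 170 CPM in G2/M cells. S-phase cells, which were chosen on it, had 344, 493, 384 and 433 CPM. Rrm2, also used to choose S-phase cells, went the other way by shares of cells at equal depth. At equal depth it was found in 20.6% (WT1), 29.4% (WT2), 19.6% (KO1) and 27.5% (KO2) of G2/M cells. The shares of S-phase cells were 17.8%, 27.8%, 15.7% and 17.8%. By such shares Mcm3, Mcm5 and Pcna went with Mcm6 in each library, and Tyms in all but KO1. Hist1h2ap was 3.57 to 6.31-fold higher in G2/M than in S-phase cells. Among the regulators of these genes, Foxm1 was 6.66 to 13.8-fold and Mybl2 (B-Myb) 5.06 to 8.53-fold higher, while 2 of 11 genes on that list were 2-fold higher in all 4 libraries. Of the G1 regulators, Ccnd2 (cyclin D2) was at 0.533 to 0.635 and Ccnd3 at 0.764 to 0.908 of the level in other CD8 T cells, and E2f8 was 9.28 to 17.9-fold higher.

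Lower genes were fewer and nearer to 1. Il7r, the receptor for the survival cytokine IL-7, had 17.8 (WT1), 9.31 (WT2), 12.7 (KO1) and 9.53 CPM (KO2) in G2/M cells, against 55.5, 36.1, 50.3 and 27.9 CPM in other CD8 T cells. Bcl2, which blocks cell death, had 50.8 to 62.1 CPM against 134 to 150 CPM. The chemokine gene Ccl5 was at 0.351 to 0.389 of the level in other CD8 T cells, and Tcp11l2, the NK receptor gene Klre1, Pik3ip1, Pbxip1, Pde2a, Sfi1, Ypel3, the nuclear RNA Malat1, Wfikkn2, Ifit3 and Ogt were at 0.248 to 0.492. Retnlg, a neutrophil gene, was at 0.191 to 0.370. Of the memory precursor and quiescence list, 14 of 16 genes were lower in all 4 libraries (median fold 0.704). Of the terminal effector list 8 of 10 were lower (median 0.682), of the interferon list 14 of 20 (median 0.763), and of the effector list 11 of 21 (median 0.881).

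Some effector genes lay near the level of other CD8 T cells. Gzmb, which encodes the killing protease granzyme B, had 1910 (WT1), 1730 (WT2), 1835 (KO1) and 1630 CPM (KO2) in G2/M cells, folds of 0.998 to 1.23. The galectin gene Lgals1 was 1.21 to 1.46-fold higher. With each cell thinned to 1000 UMIs, Gzmb was found in 77.8%, 70.7%, 76.7% and 73.0% of G2/M cells, against 72.8%, 70.7%, 68.8% and 67.1% of other CD8 T cells and 8.16% to 16.1% of the cells with B cell genes, whose median was 1406 to 2167 UMIs before thinning. In unthinned G2/M cells the shares were 89.7% to 97.8%. Il7r was found in 2.04%, 1.15%, 1.86% and 1.66% of thinned G2/M cells and in 6.51%, 3.61%, 5.11% and 2.68% of the others. Of 16 glycolysis genes, 8 were higher in all 4 libraries and 1 of them (Tpi1, 2.22 to 3.03-fold) at least 2-fold.

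**Figure D2:**
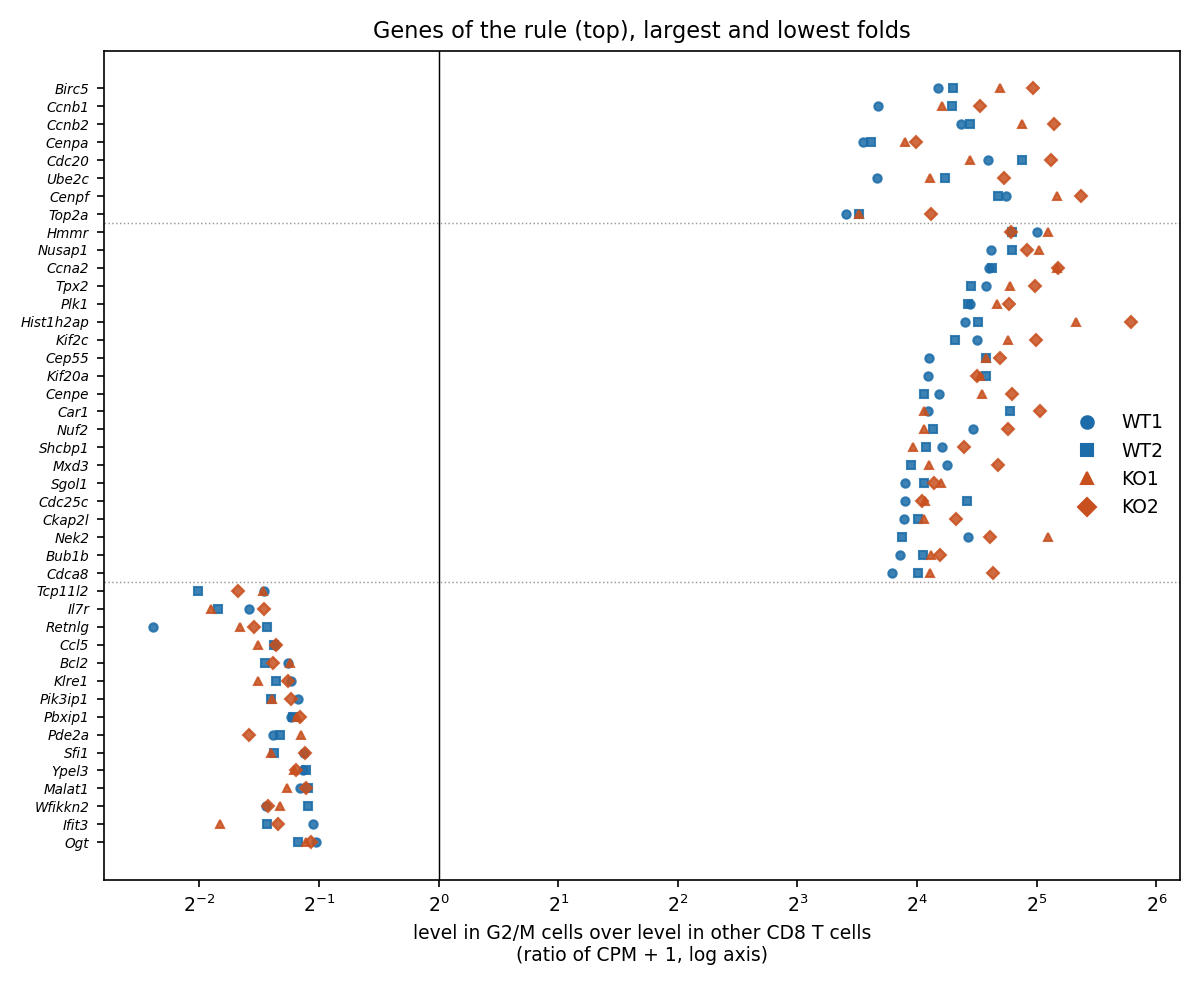
Ratio of the level in G2/M cells to that in other CD8 T cells (CPM + 1 in each, log axis) in each library, for the 8 genes that chose the cells (top block), the 20 genes with the largest folds (middle) and the 15 with the lowest (bottom). Blue symbols are WT and orange symbols Bcl3-/- libraries. All points of the middle block lie above 13-fold and all points of the bottom block below 0.5-fold.

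G2/M cells were not uniform. Along bins of the 8-gene sum, Mki67 went from 50.8 to 104 CPM at a sum of 5 to 7 to 139 to 206 CPM at 16 or more, and Tubb5 from 631 to 1175 CPM to 1522 to 2053 CPM over the same bins. Ccl5 went the other way, from 14097 CPM at 5 to 7 to 12039 CPM at 16 or more in KO1 and from 19668 to 12135 CPM in WT2. Mcm6 was highest below the top bin in WT1, WT2 and KO2, at 201, 247 and 252 CPM, and had 139, 178 and 127 CPM at 16 or more. Cells with a sum of 16 or more were the deepest in each library, and the 8 genes are part of the same cells, so these are descriptions.

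**Figure D3:**
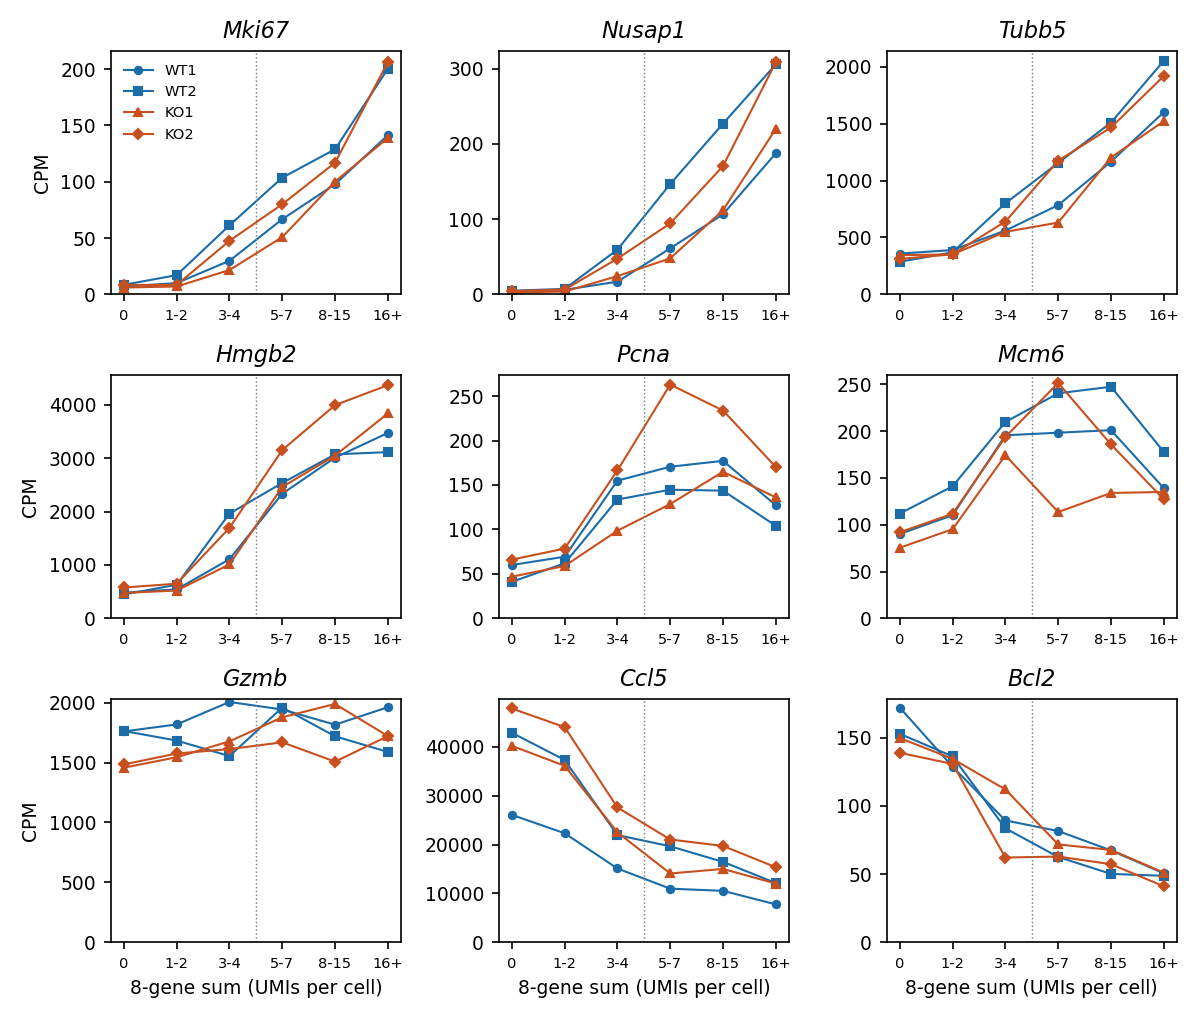
Level (CPM, linear axes from 0) of 9 genes in CD8 T cells grouped by the summed UMIs of the 8 genes per cell, with 1 line per library. Cells to the right of the dotted line are G2/M cells. Mki67, Nusap1, Tubb5 and Hmgb2 climb across it, Ccl5 and Bcl2 go down, Pcna and Mcm6 are highest in the middle, and Gzmb shows no trend shared by all libraries.

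A second way in which they varied was the RNA of DNA replication. Of the G2/M cells, 772 carried 5 or more UMIs over the 12 replication genes, with shares of 46.9% for WT1, 48.4% for WT2, 40.1% for KO1 and 43.4% for KO2. These cells were deeper, with a median of 7301, 4568, 7125 and 5808 UMIs against 4225.5, 2497, 4422 and 3429 UMIs in the rest of the G2/M cells. The 8 genes did not go together along this split, and because each cell needed 5 of their UMIs, part of their higher CPM in the shallower cells is fixed by the rule. Cenpa had 822, 1036, 885 and 1157 CPM in G2/M cells under that count of replication UMIs against 379, 348, 364 and 382 CPM in those at or above it, and in the same direction Ccnb2 was 1.94 to 2.42-fold and Cdc20 1.59 to 2.96-fold higher. Top2a was at 0.173 to 0.275, Nusap1 at 0.224 to 0.324, the tubulin gene Tuba1b at 0.218 to 0.322 and Hist1h2ap at 0.0508 to 0.124 of the level in those at or above it. Plk1 (0.745 to 1.01) and Birc5 (0.960 to 1.25) lay near 1. The direction of each of these genes except Plk1 and Birc5 was the same in all 4 libraries. Klrg1, a receptor of terminal effector cells that belongs to neither set, was 1.34 to 1.54-fold higher below that count.

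Bcl3 deletion was then compared within G2/M cells. Levels in this comparison are CPM over the UMIs of the tested genes alone, summed over the G2/M cells of each library. They differ slightly from those above and from those given with the interaction below, which are over all genes. Adjusted p-values come from the quasi-likelihood test of edgeR, with Benjamini-Hochberg correction across the 8633 genes tested. They measure the spread between libraries of 2 animals. Bcl3 itself had 34.8 CPM in WT1 and 115 in WT2, and 33.4 in KO1 and 86.8 in KO2. The chimeras differed more than the genotypes did, and the log2 fold change of −0.31 (SE 0.44) was not called (adjusted p = 0.885, 0.342 with the chimera as a replicate block). Counts of 3′ ends outside the deleted part of the gene would not check the genotype, and the deleted part is not given in the sources used here.

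At an adjusted p of 0.05, 40 genes were higher (0.463% of those tested) and 15 lower (0.174%) in Bcl3-/- G2/M cells, while 806 had an unadjusted p below 0.05. All 55 moved the same way in both chimeras, but the calls used the same libraries, so this follows largely from the selection. The share of all tested genes that did so is not given here. Each chimera gave both genotypes, and with the chimera as a replicate block the counts were 162 higher (1.88%) and 108 lower (1.25%), including each of the 55. In other CD8 T cells, 0.309% of 10986 genes were called higher and 0.0819% lower, or 3.49% and 3.31% with the replicate block. Of the 55 genes, 23 were among those called there, or 51 with the block, 54 had the same sign, and 2 (Ltf and Ccl4) had a difference between G2/M and other CD8 T cells that was itself called. Both cell classes come from the same libraries.

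The gene lists below were chosen with earlier results of these data known, so their counts and medians are descriptions. Few genes of the division machinery were called, in lists too short for the 0.463% and 0.174% called among all genes to give many. None of 28 mitotic kinases and cyclins was called (median log2 fold change −0.01), none of 25 kinetochore genes (−0.07), none of 13 condensin and cohesin genes (−0.02) and none of 15 chromatin genes (0.05), where all genes tested had a median of 0.01. Mki67 and Cdk1 both had a log2 fold change of −0.01 (SE 0.16 and 0.17). In the paired fit, Nek2 and Hmgb1 of these lists were called higher. The 8 genes that chose the cells had log2 fold changes from −0.32 to 0.23, which is a description. Of 31 spindle genes, Tuba1c, a tubulin gene, was higher, with 79.6 CPM in WT1 and 104 in WT2 against 156 in KO1 and 188 in KO2 (log2 fold change 0.88, SE 0.15, adjusted p = 0.0206, but 0.0526 without WT1). The tubulin genes are close in sequence, so reads may be split among them. Tuba1c was also called in other CD8 T cells, and with the block Tuba1b was called higher in G2/M cells too.

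Most genes of DNA replication had a negative log2 fold change. Of 33 tested, 1 was called, and 3 had a log2 fold change above 0 (median −0.27). A lower level was called for 0.174% of all genes, or 1.25% with the block. Gins1, a part of the replicative helicase, had 37.7 CPM in WT1 and 31.8 in WT2 against 16.2 in KO1 and 10.5 in KO2 (log2 fold change −1.42, SE 0.25, adjusted p = 0.0244). The groups did not overlap, but the call was lost with DESeq2, at equal cells and UMIs and at a threshold of 8 (adjusted p = 0.0943, 0.0887 and 0.0612). With the replicate block Mcm3, Mcm6, Rrm1 and Lig1 were called lower too. The share of G2/M cells with replication RNA, from unthinned cells, was 46.9% and 48.4% in WT against 40.1% and 43.4% in Bcl3-/- libraries. That share counts UMIs of a list that holds Mcm3 and Mcm6, so it is not independent of these calls.

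Terminal effector genes included 3 of the 40 higher genes. All 10 genes of this list had a log2 fold change above 0 (median 0.51), and S1pr5, Cx3cr1 and Klrg1 were called, 5 with the replicate block (also Gzma and Klrc1). Among all genes tested, 0.463% were called higher, or 1.88% with the block, and the median was 0.01. S1pr5, a receptor through which effector cells leave tissue, had 14.0 CPM in WT1 and 9.83 in WT2 against 36.3 in KO1 and 35.6 in KO2 (log2 fold change 1.54, SE 0.23, adjusted p = 0.00972). Both Bcl3-/- libraries were more than 2-fold above both WT libraries. Cx3cr1, the fractalkine receptor, had 49.5 and 38.4 CPM in WT against 96.7 and 80.8 CPM (0.98, SE 0.18, adjusted p = 0.0287). Its call was lost without WT2 (adjusted p = 0.0703), with DESeq2, at equal cells and UMIs, at a threshold of 8 and with cells chosen after thinning (0.0518 to 0.124). Klrg1 had 117 and 106 CPM against 233 and 177 CPM (0.85, SE 0.17, adjusted p = 0.0449, but 0.114 without WT2, 0.0598 without KO1, 0.0612 at a threshold of 8 and 0.0991 with cells chosen after thinning). In other CD8 T cells, Klrg1 had a log2 fold change of 0.40 (adjusted p = 0.237, but 0.00772 with the replicate block), and the difference between the classes was not called (adjusted p = 0.0977). S1pr5 had a log2 fold change of 1.49 in other CD8 T cells (adjusted p = 0.00205). Cx3cr1 had 0.91 there (adjusted p = 0.113, but 0.0002 with the replicate block).

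Of 21 effector genes, S100a4 and Id2 rose and Ccl4 fell, and with the block 4 were called higher and 3 lower (also Ccl3, Prf1, Gzma and Ccl5). Over all genes, 0.463% were called higher and 0.174% lower, or 1.88% and 1.25% with the block. With cells chosen after thinning, Ccl4 had a log2 fold change of −0.61 in place of −0.99 and was not called (adjusted p = 0.205). S100a4, a calcium-binding protein of effector cells, had 724 and 589 CPM in WT against 1204 and 1251 CPM in Bcl3-/- libraries (log2 fold change 0.87, SE 0.15, adjusted p = 0.0176). Id2, an inhibitor of E proteins needed for effector cells, had 651 and 574 CPM against 967 and 1247 CPM (0.82, SE 0.15, adjusted p = 0.0256). Without WT2 neither passed, at adjusted p = 0.145 and 0.156. Gzmb had a log2 fold change of −0.09 (SE 0.15, adjusted p = 0.893), and none of 13 memory and quiescence genes was called (median 0.11), Il7r among them (−0.36, SE 0.36). Cd3e, a chain of the T cell receptor complex, rose (416 and 360 CPM against 710 and 789 CPM, log2 fold change 0.92, adjusted p = 0.00972, 0.0512 without WT2), while the other 5 T cell genes were not called.

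Of 8 genes on a list of inhibitory receptors and Tox, Tox, Pdcd1 and Lag3 fell (5 with the block, with Ctla4 and Cd160) and 5 were not called. Of all genes tested, 0.174% were called lower, or 1.25% with the block. The median log2 fold change of the list was −0.75, and 2 of the 8 were above 0, Tigit with 1.32 (SE 0.47, adjusted p = 0.372) at 2.51 and 2.81 CPM in WT against 5.40 and 8.22 CPM. Tox, a transcription factor of exhausted T cells, had 44.8 CPM in WT1 and 46.8 in WT2 against 15.2 in KO1 and 19.2 in KO2 (−1.44, SE 0.19, adjusted p = 0.00625). It was called under each alternative tried, with adjusted p up to 0.0438. Pdcd1, which encodes PD-1, had 71.7 and 107 CPM against 38.3 and 47.5 CPM (−1.07, SE 0.19, adjusted p = 0.0244, 0.0621 without the cells of mixed lineage). Lag3 had 128 and 122 CPM against 81.5 and 59.4 CPM (−0.86, SE 0.17, adjusted p = 0.046, 0.121 without KO2). Its call was also lost with DESeq2, at equal cells and UMIs and with cells chosen after thinning (adjusted p = 0.103, 0.0579 and 0.0857). None of these had a called difference between G2/M and other CD8 T cells, where Tox had a log2 fold change of −0.72 (adjusted p = 0.206, but 0.0062 with the replicate block). Pdcd1 and Lag3 were likewise called there with the block alone (0.00114 and 0.000391). Tnfrsf4, the costimulatory receptor OX40, also fell, with 24.0 and 21.1 CPM against 5.40 and 6.39 CPM (−1.96, SE 0.30, adjusted p = 0.00972), but not at equal cells and UMIs or with cells chosen after thinning (0.126 and 0.0803).

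Interferon-stimulated genes had mostly negative log2 fold changes. Of 19 tested, 3 were called (Gbp6, Igtp and Rtp4), 7 with the block, and 1 had a log2 fold change above 0 (median −0.46). Calls of a lower level made up 0.174% of all genes, or 1.25% with the block. Gbp6 (ENSMUSG00000104713), a guanylate-binding protein, had 35.2 and 37.5 CPM in WT against 7.36 and 10.0 CPM (−2.07, SE 0.24, adjusted p = 0.00203) and belongs to a family of similar genes. Igtp had 205 and 219 CPM against 122 and 147 CPM (−0.69, SE 0.14, adjusted p = 0.0449), and it was not called without WT2 or without KO1 (adjusted p = 0.107 and 0.0681), with DESeq2, at equal cells and UMIs or at a threshold of 8 (0.0835, 0.145 and 0.0796). Rtp4 had 56.7 and 76.8 CPM against 30.9 and 40.2 CPM (−0.92, SE 0.18, adjusted p = 0.0449, 0.0926 without WT2 and 0.0519 without the cells of mixed lineage), and was not called with DESeq2, at equal cells and UMIs, at a threshold of 8 or with cells chosen after thinning (0.0565 to 0.238). Of 12 NF-κB genes none was called (median −0.27), Nfkbia with the block. Of 16 glycolysis genes, Pgk1 was lower, with 252 and 157 CPM against 92.7 and 48.4 CPM (−1.56, SE 0.28, adjusted p = 0.0279, and −2.16 without KO1), and neither DESeq2 nor the fit of cells chosen after thinning called it (adjusted p = 0.91 and 0.0677). With the block Pfkp, Eno1, Ldha and Pkm were called lower too. None of 11 immediate early genes, 12 mitochondrial genes, 22 G1 regulators or 10 regulators of mitotic genes was called (medians −0.02, −0.06, 0.13 and 0.09), while the block called Jun lower and mt-Atp8 and mt-Nd3 higher.

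**Figure D4:**
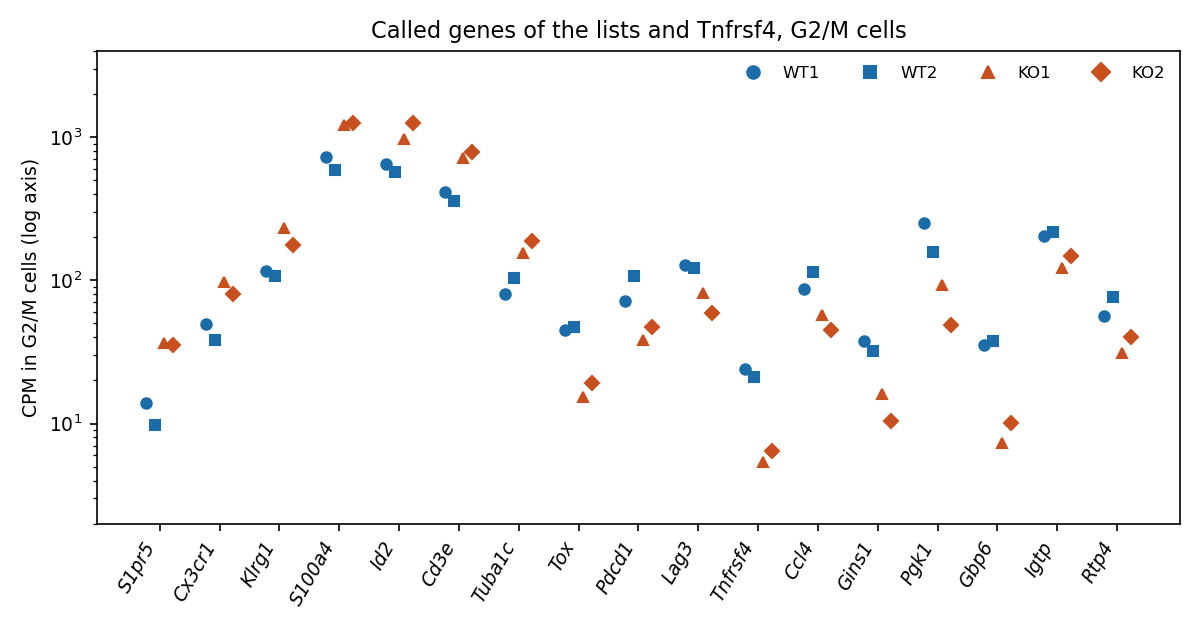
Level in G2/M cells (CPM, log axis) of 17 called genes in each library, blue for WT and orange for Bcl3-/- libraries. For each gene both orange symbols lie on the same side of both blue symbols, which is a description, since the genes were picked by their calls in these libraries.

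Among the largest rises were long noncoding RNAs (Mir142hg, AY036118, Gm26825 and Gm12840) as well as genes annotated as protein-coding. Mir142hg, the host RNA of a blood cell microRNA, had 7.17 CPM in WT1 and 10.3 in WT2 against 47.6 in KO1 and 50.2 in KO2 (log2 fold change 2.48, SE 0.23, adjusted p = 0.000402). It was as far apart in other CD8 T cells (2.52, adjusted p = 0.00109). The other large rises were Gm20721 (3.86), AY036118 (2.95), Gm26825 (2.55), Gm6133 (2.29), Rnaset2a (2.10), Gm12840 (2.09), Jmjd7 (1.65) and Mthfs (1.63), as log2 fold changes. AY036118, Gm26917 (1.48) and Gm42418 (1.15) were all called higher and lie at a single locus, chr17:39843013-39848788. They had 84.9, 228 and 197 CPM in KO2 against 34.3, 113 and 106 CPM in KO1. Without KO2, the log2 fold change was 2.67 for Gm20721, 2.203 for AY036118, 1.83 for Gm26825 and 1.44 for Gm12840, and without KO1 it was 4.46 for Gm20721. Without KO2, Gm20721, Gm26825, Gm12840 and Jmjd7 were not called (adjusted p = 0.346, 0.102, 0.0631 and 0.0885), while AY036118 was. At a threshold of 8, Gm20721 (0.0707), Gm12840 and Jmjd7 (both 0.111) were not called, nor with cells chosen after thinning were Gm26825, Gm12840 and Jmjd7 (0.0857, 0.132 and 0.220). Jmjd7 was also not called without WT2, without the cells of mixed lineage, with DESeq2 or at equal cells and UMIs (0.0882, 0.104, 0.291 and 0.0645). Rnaset2a and its copy Rnaset2b were both called, though not with DESeq2 (0.0835 and 0.291), and share reads, so which of them rose is uncertain. Of the 55 genes, 44 are protein-coding, against 8449 of 8624 tested genes with a position in GENCODE vM21 (GRCm38), and the ribosomal pseudogenes among the rest share reads with their parent genes. On chromosome 1, which holds the CD45 gene, lie 4 of the 55 (Rassf5, Serpine2, Pdcd1 and Sp110) and 487 of the 8624.

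The largest falls included Serpine2, a protease inhibitor (17.9 and 15.5 CPM against 3.93 and 4.11 CPM, log2 fold change −2.08, SE 0.35, adjusted p = 0.0176, but 0.0943 with DESeq2 and 0.124 with cells chosen after thinning). Hist2h2aa1, a histone gene with near-identical copies, had 23.7 and 25.8 CPM against 7.85 and 6.39 CPM (−1.81, adjusted p = 0.00972, 0.0646 with cells chosen after thinning). Mrpl53 had 6.10 and 6.56 CPM in WT, and the Bcl3-/- libraries held 1 UMI of it in all, so no fold is given. It was called in the main fit (adjusted p = 0.0278) but not with DESeq2 (adjusted p = 0.452), and not without WT1, WT2 or KO2.

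Ltf (lactoferrin, a granulocyte gene) was the second largest rise, with 4.30 and 7.96 CPM in WT against 54.0 and 112 CPM in Bcl3-/- libraries (log2 fold change 3.77, SE 0.35, adjusted p = 0.000402). In G2/M cells of KO1, 1 cell held 86 of its 110 UMIs, and in KO2 1 cell held 209 of 246. All 8 granulocyte genes had a log2 fold change above 0 (median 1.90), and 7 were called higher with the block, against 1.88% of all genes. Of 8 erythroid, 7 myeloid, 5 B cell and 2 plasma cell genes tested none was called, but with the block both plasma cell genes (Jchain and Mzb1, log2 fold changes −1.19 and −1.04) and the macrophage gene C1qa (−1.49) were called lower. Without the 75 cells of mixed lineage, Ltf and Ms4a3, another gene of granulocyte precursors, had too few counts to be tested, as had Gm20721, and 7 other genes lost their call (As3mt, Jmjd7, Oas1a, Pdcd1, Rnf5, Rtp4 and Sp110, with adjusted p of 0.0597, 0.104, 0.0559, 0.0621, 0.0652, 0.0519 and 0.0538), while 38 genes were higher and 16 lower, 33 and 12 of them from the 55.

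**Figure D5:**
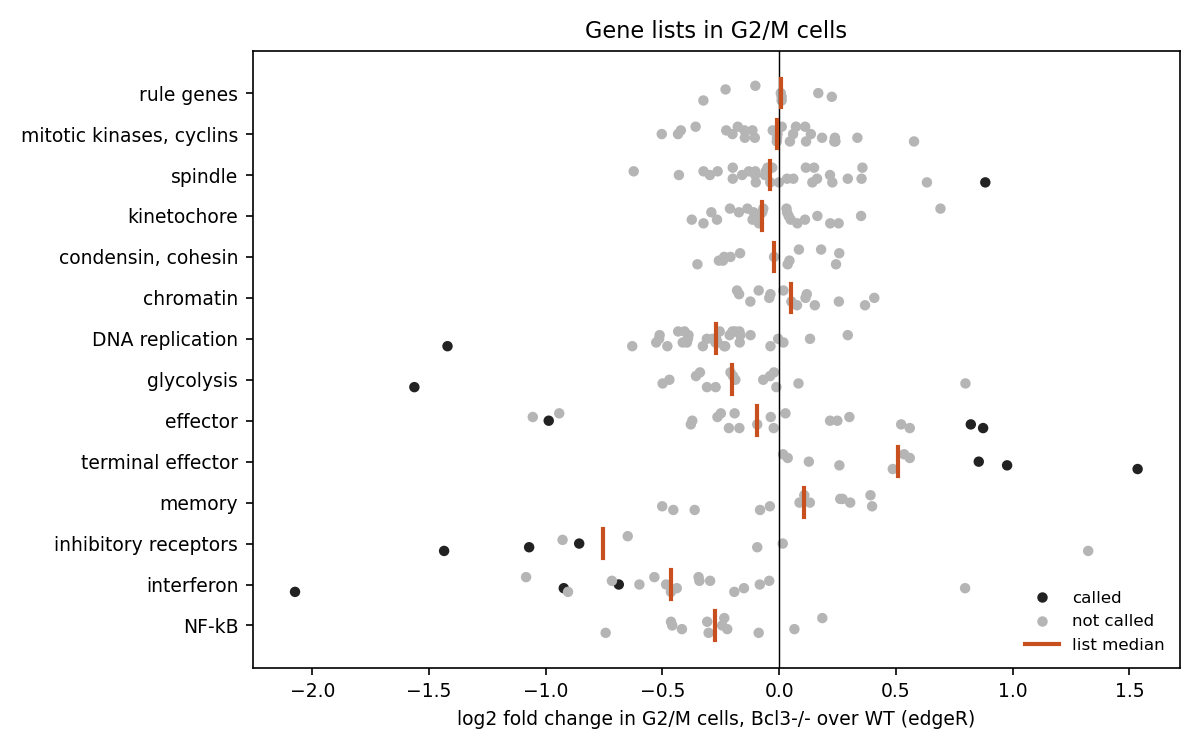
Difference between Bcl3-/- and WT (log2 fold change) in G2/M cells for each tested gene of 14 lists, with called genes in black, genes not called in grey and the list median as an orange bar. The mitotic, spindle, kinetochore, condensin and chromatin lists sit around 0 (medians −0.07 to 0.05), the terminal effector list above it (0.51), and the inhibitory receptor and interferon lists below it (−0.75 and −0.46). The lists were chosen with earlier results of these data known, so these medians are descriptions.

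Whether the genotype difference in G2/M cells differed from that in other CD8 T cells was tested as an interaction over 10904 genes. It was called for 20 genes, 18 with a more positive difference in G2/M cells (0.165%) and 2 with a more negative one (0.0183%), with 628 at an unadjusted p below 0.05. The 2 were the chemokine genes Ccl3 and Ccl4. Ccl3 had 53.1 (WT1), 43.8 (WT2), 29.3 (KO1) and 18.6 CPM (KO2) in G2/M cells, against 31.6, 34.9, 40.5 and 43.8 CPM in other CD8 T cells (interaction log2 fold change −1.38, SE 0.22, adjusted p = 0.017). It was lower in Bcl3-/- than in WT libraries among G2/M cells and higher among the others. Ccl4 had 86.3, 114, 57.1 and 44.9 CPM against 116, 121, 111 and 98.9 CPM (−0.78, SE 0.13, adjusted p = 0.0289). In WT2, 3 cells held 140 of the 244 Ccl4 UMIs. Against other CD8 T cells with none of the 8 genes detected, neither was called (adjusted p = 0.0655 and 0.527).

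The 18 include Birc5 and Ccnb2, which the rule used, so that their call says nothing. Hist1h2ap had 3621, 3519, 2501 and 1239 CPM in G2/M cells and 170, 154, 61.4 and 21.5 CPM in other CD8 T cells, so that the Bcl3-/- level was lower in both classes and more so in the others (interaction log2 fold change 1.12, SE 0.11, adjusted p = 6.49e-05). Stmn1, which destabilises microtubules, had 1060, 1377, 1150 and 1438 CPM against 121, 156, 97.8 and 100 CPM (0.57, SE 0.08, adjusted p = 0.00763). 2810417H13Rik, a PCNA-binding protein, behaved likewise (0.67, SE 0.08). Against other CD8 T cells with a sum of 0 over the 8 genes, Stmn1, Cks1b and Cenpw were not called (adjusted p = 0.305, 0.261 and 0.261), while Hist1h2ap was (0.000445). The cytoskeletal genes Actb and Crip1 had small differences (0.27, SE 0.03, and 0.28, SE 0.03). Actb had 7889, 7834, 10270 and 11480 CPM in G2/M cells and 7126, 7275, 7798 and 8828 CPM in the others, and both were called in that setting too (adjusted p = 0.000164 and 0.000223).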

How the data were processed

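Per the labels, the submitters' processing notes and the methods of the study, the authors made 10x 3′ libraries, sequenced them and ran Cell Ranger 2.2.0 after bcl2fastq 2.17 on build mm10. The authors deposited counts of UMIs without normalization, for every gene and every barcode. Cells were kept at 500 genes or more and at most 10% mitochondrial UMIs, as in the study's methods. No doublet caller was run. Barcodes with 10 or more UMIs of another lineage were counted and left out in an alternative, which was chosen after seeing the data. The members and gene lists were chosen with earlier results of these data known.

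Counts of G2/M cells were summed per library and tested with the quasi-likelihood test of edgeR 4.0.16 (limma 3.58.1, R 4.3.3), with TMM scaling, edgeR's filter on low counts and a Benjamini-Hochberg threshold of 0.05. The interaction model held the sums of G2/M and of other CD8 T cells. DESeq2 1.42.0 was an alternative, as were no filter, other thresholds of the 8-gene sum, thinning, equal cells and UMIs, and leaving out each library. Summed G2/M cells held 2803545 (WT1), 2147440 (WT2), 2050197 (KO1) and 2204059 (KO2) UMIs. Shares were computed in Python 3.11.15 with scipy 1.17.1, with the exact hypergeometric chance of each cell after thinning. The tests were checked on simulated data.

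Same-numbered libraries come from the same chimera, so the numbers pair the samples. The deviations WT1 minus WT2 and KO1 minus KO2 correlated with r = 0.153 over 6870 genes above 10 CPM. Genes were named by rule. They are up to 4 genes a list (the most expressed, called or textbook regulators), the 20 largest and 15 lowest folds between the classes among genes with a mean of at least 20 CPM (ranked by the weakest library), the 10 largest rises and 10 largest falls among calls with 1 direction in both chimeras, the 10 interactions with the lowest p, and Bcl3. Of the 10 largest falls, 1 is not reported here. Others named in the text were chosen after their values were seen. Pseudogenes, histone, tubulin and ribosomal genes share reads with copies.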

Additional observations from a re-analysis of the deposited data

Results flagged for a closer look

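Of the 20 genes whose Bcl3-/- against WT difference was itself different in G2/M cells and in other CD8 T cells (interaction in edgeR, all values log2), the 10 with the lowest p are given. Those of Hist1h2ap (1.12), Actb (0.27), Crip1 (0.28), 2810417H13Rik (0.67), Stmn1 (0.57) and Ccl3 (−1.38) were also called without the cells of mixed lineage.

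The basophil and mast cell genes Mcpt8 (5.54, adjusted p = 9.31e-06), Prss34 (6.28, adjusted p = 6.49e-05) and Cpa3 (5.07, adjusted p = 0.0133) had most of their G2/M UMIs in single cells of KO1. The other CD8 T cells also enter these interactions. There Mcpt8 had 0.0658 (WT1), 28.0 (WT2), 15.9 (KO1) and 0.696 CPM (KO2). Prss34 had 0, 31.5, 14.1 and 0.812 CPM in the same order. In G2/M cells of KO1, 1 cell held 285 of 297 Mcpt8 UMIs, 327 of 332 Prss34 UMIs and 37 of 48 Cpa3 UMIs. Without the cells of mixed lineage, Mcpt8 and Prss34 were not called (adjusted p = 0.908 and 0.884) and Cpa3 was not tested. With the chimera as a replicate block their adjusted p was 0.705, 0.949 and 0.247. The interaction of Ltf was 3.22 (adjusted p = 6.65e-05), and 0.984 was its adjusted p without those cells.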

How the results depend on the processing

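With the replicate block (the paired fit), 162 genes were higher and 108 lower in Bcl3-/- G2/M cells, and without the cells of mixed lineage the block gave 102 and 72. With no filter on low counts there were 148 and 88, with DESeq2 30 and 6, and with cells chosen after thinning 32 and 7. Leaving out a library in turn gave 50 to 131 higher and 37 to 73 lower genes (104 and 37 without WT1, 50 and 40 without WT2, 131 and 73 without KO1, 86 and 47 without KO2). The fit with 1 library in an arm assumes that it varies like the other genotype. The 20 interactions became 70 with no filter, 11 against other CD8 T cells with none of the 8 genes, 9 with DESeq2, 29 with the block, and 25 to 60 without a library (60 without WT1, 45 without WT2, 43 without KO1, 25 without KO2). Of the 55 calls, 55 were kept with the block and with no filter, 36 with DESeq2, 34 after thinning, 42 at equal cells and UMIs, 40 at a threshold of 8 and 39 without WT2, and none reversed. The G2/M share difference ranged from −2.94 to −0.34 points without a library, and the S-phase difference from −2.88 to −0.94. At a threshold of 8 the G2/M difference was −0.80 points, with chimera 2 at 0.58. With 2 libraries per genotype a share cannot pass the test.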
